A study of Mus musculus with 6 samples.

Results

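Resident macrophage identity genes, a set of 10 transcripts widely used to recognise tissue-resident macrophages, were followed through the leukocytes of the mouse heart. They were taken by symbol as 10 of the 32285 genes in the count matrices: Timd4, Lyve1, Folr2, Cbr2, Vsig4, F13a1, Igf1, Ccl8, Ccl24 and Fcna. All 10 had counts in macrophage-like cells and passed the filter on low counts there. CD45+ cells, that is cells carrying the common leukocyte surface marker, had been isolated from hearts of C57Bl6J mice 28 days after the heart was treated with a small-animal irradiator. The 6 libraries form 3 groups of 2: irradiated mice labelled STING KO (titled Tmem) given 12 Gy in 1 fraction, irradiated WT mice given the same 12 Gy, and WT mice given a sham treatment. STING is the adaptor that links cytosolic DNA sensing to type I interferon. No sham library of the knockout was analysed here, so a genotype difference is measured under irradiation alone.

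The heart holds macrophages that were seeded before birth and renew themselves locally, and others that derive from blood monocytes and carry the chemokine receptor Ccr2. In mouse, the long-lived resident cells are commonly marked by Timd4, Lyve1 and Folr2, and loss of these transcripts is often used as a sign that resident cells were depleted or replaced. The genes differ in what their proteins do: Timd4, a receptor for phosphatidylserine on dying cells, Vsig4, a complement receptor for C3b, and Folr2, the folate receptor beta, serve uptake, while Lyve1 binds hyaluronan. Cbr2 is a carbonyl reductase, F13a1 the catalytic subunit of coagulation factor XIII, and Fcna a ficolin, a soluble lectin that starts the complement cascade. Igf1 is a growth factor, and Ccl8 and Ccl24 are secreted chemokines.

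The libraries held 31279 kept cells, and the kept cells of a library had a median depth between 4405 and 6801.5 UMIs (unique molecular identifiers, 1 per captured transcript). The 7 clusters called macrophage-like, from markers such as Adgre1, C1qa and Mertk and without use of the 10 genes, held 11162 cells. They numbered 1877 and 2005 in the libraries labelled STING knockout, 1321 and 1964 in irradiated WT, and 1921 and 2074 in sham WT. Cells without leukocyte identity were present although the isolation was for CD45, namely 1621 endothelial-like, 468 fibroblast-like and 51 lymphatic endothelial-like cells. The STING transcript, Tmem173, was at 40.6 and 43.1 CPM (UMIs of the gene scaled to a common library total) over all cells labelled STING knockout, 45.5 and 41.8 CPM in irradiated WT and 40.1 and 32.8 CPM in sham WT, so it does not separate the genotypes. A 3' tag can lie outside a deletion and then checks nothing, and every genotype direction here rests on the label. Among the kept cells, 123 barcodes occurred in more than 1 library, in 246 cells. Whether both libraries of a group stem from different mice is not in the labels, and p-values measure how these libraries scatter, possibly for technical reasons. For a single value, exact permutation of 2 against 2 libraries reaches a two-sided p of 0.33 at the smallest. All adjusted p-values are from edgeR's quasi-likelihood test over all genes tested, with Benjamini-Hochberg adjustment and 0.05 as the threshold.

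RefSeq promoter windows on GRCm38.p6 were found for 8 of the 10 genes, with 2 each for Folr2 and F13a1. Of these windows 4 are shown because Timd4 and Vsig4 fell together after irradiation, Ccl8 rose in some clusters, and Folr2 is a resident marker that was not called in its richest clusters. Each line gives the 250 bases before the transcription start, 5' to 3' on the gene's strand. Capitals mark 2 motifs found in a search of both strands: the composite bound by ETS and interferon regulatory factors, GGAA and GAAA with 2 bases of any kind between them, and TGCTGA, a half-site of the MAF family.
Timd4, chr11:46810549-46810798, plus strand: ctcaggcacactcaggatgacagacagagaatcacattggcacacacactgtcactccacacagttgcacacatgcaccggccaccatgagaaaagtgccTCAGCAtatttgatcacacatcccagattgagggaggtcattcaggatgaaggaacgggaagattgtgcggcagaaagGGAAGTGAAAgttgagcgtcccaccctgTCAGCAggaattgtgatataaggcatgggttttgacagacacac
Vsig4, chrX:96293439-96293688, minus strand: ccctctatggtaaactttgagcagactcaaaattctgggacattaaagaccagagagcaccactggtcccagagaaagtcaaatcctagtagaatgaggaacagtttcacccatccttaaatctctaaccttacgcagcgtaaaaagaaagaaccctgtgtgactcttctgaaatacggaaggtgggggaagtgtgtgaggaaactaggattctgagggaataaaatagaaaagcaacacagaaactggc
Ccl8, chr11:82114935-82115184, plus strand: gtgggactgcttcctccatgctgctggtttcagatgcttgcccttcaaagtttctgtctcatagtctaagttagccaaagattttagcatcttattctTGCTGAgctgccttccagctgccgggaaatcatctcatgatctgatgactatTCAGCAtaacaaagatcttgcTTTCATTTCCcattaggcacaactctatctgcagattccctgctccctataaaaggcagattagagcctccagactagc
Folr2, chr7:101857191-101857440, minus strand: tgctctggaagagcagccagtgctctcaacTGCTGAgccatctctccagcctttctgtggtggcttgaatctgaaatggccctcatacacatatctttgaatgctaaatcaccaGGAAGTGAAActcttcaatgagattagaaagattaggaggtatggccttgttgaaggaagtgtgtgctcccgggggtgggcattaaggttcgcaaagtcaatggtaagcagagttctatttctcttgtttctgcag
The composite stands 72 to 63 bases before the Timd4 start and 136 to 127 bases before the Folr2 start shown, with the same 10 letters, and on the reverse strand 79 to 70 bases before the Ccl8 start. The other Folr2 window, at chr7:101845332-101845581, holds TGCTGA without the composite. The composite occurs in 2.301% of 32851 promoter windows of this length. TGCTGA or its reverse occurs in 16.1% of them and was found in Timd4, Folr2, Ccl8 and Fcna. Neither motif was found in the Vsig4 window. The interferon response core, GAAA and GAAA with 2 bases between them (2.98% of windows), and a PU.1 core, GAGG followed by AAGT (2.44%), were searched too and found in no window of the 8 genes. The composite was thus present in a window of a gene that fell, of one that rose in some clusters and of one that was not called in its richest clusters, and a match in letters is not a shown site.

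Most UMIs of the 10 genes came from macrophage-like cells, from 76.1% of those of F13a1 to 90.7% of those of Vsig4. Within the class the levels were far from even. Cluster 5 (led by Cd163 and Slc40a1; 1758 cells) and cluster 3 (Cd163, Colec12 and Ccl7; 2575 cells) held the highest levels of Folr2, Cbr2, F13a1, Igf1, Ccl8 and Ccl24 among the clusters and classes compared. Averaged over the 6 libraries, Folr2 was at 1611 CPM in cluster 5 and 1251 CPM in cluster 3, against 284 CPM in cluster 1 (Lilra5 and Cx3cr1; 3162 cells) and 106 CPM in cluster 4 (Tnfsf9 and Tnf; 2354 cells). F13a1 had 2396 CPM in cluster 5, 1874 in cluster 3, 593 in cluster 1 and 312 in cluster 4. Cluster 20, a small cluster led by interferon-induced genes such as Ifit3 (498 cells), stood between them for both genes. Cluster 17 (554 cells) was led by heart muscle transcripts such as Tnnc1 and held intermediate levels.

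Cluster 24 was small and held a different combination. It was led by Alox15, Saa3 and Prg4, counted 261 cells and detected 4 of the 12 macrophage markers. Fcna reached 1229 CPM and Timd4 293 CPM there, each the highest mean of any cluster or class compared, while Ccl8 was at 10.0 CPM and Cbr2 at 76.9 CPM. Vsig4 averaged 228 CPM but ran between 0 and 668 CPM over the libraries; without the first sham library, which had 6 cells of the cluster, its mean was 140.4 CPM, against 174 CPM in cluster 3. With 2.34% of the class's cells it supplied 33.9% of its Fcna UMIs and 20.9% of its Timd4 UMIs. Its cells were unevenly spread, with 28 and 98 in the libraries labelled STING knockout, 18 and 68 in irradiated WT and 6 and 43 in sham WT. It was therefore not tested on its own, and class values are given with and without it.

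Outside the macrophage-like class the genes were low in most named classes, with exceptions. The cycling cluster was named for division genes and also carried myeloid markers. Their median detection was 0.871 of that in the highest cluster, at a median depth of 13164 UMIs. The name therefore does not place these cells outside the macrophages. Cycling cells held more of several genes than cluster 4, with F13a1 at 586 CPM, Cbr2 at 358 CPM and Folr2 at 253 CPM. Igf1 was lower there, at 99.4 CPM, against 166 CPM in cluster 4. A further 2160 cells in mixed and 2681 in unnamed clusters were not assigned to a class. Levels in those clusters varied, for instance with 498 CPM of F13a1 in mixed cluster 13 and 113 CPM in mixed cluster 14. F13a1 was at 411 ± 121 CPM in monocyte-like cells (SD, n = 6 libraries), where each other member averaged at most 26.6 CPM. Lyve1 was at 1525 CPM in lymphatic endothelial-like cells, the textbook source of the protein outside macrophages, ranging between 738 and 2546 CPM in the 5 libraries that held any such cell; those cells had no Timd4 UMI and no Ccl8 UMI. Igf1 was at 328 ± 63.8 CPM in fibroblast-like cells, against 406 CPM in cluster 3 and 446 CPM in cluster 5. Timd4 was at 25.9 CPM in dendritic cell-like cells, with 9 to 45 UMIs per library. After thinning every cell to 2000 UMIs, a Folr2 UMI was found in 46.8% of macrophage-like cells and in 2.26% of B cell-like cells, a class without the gene, whose shares of the 10 genes lay between 0.180% and 3.49% and were taken as the level of free RNA. Median depths before thinning were 6408 and 2785 UMIs.

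**Figure D1:**
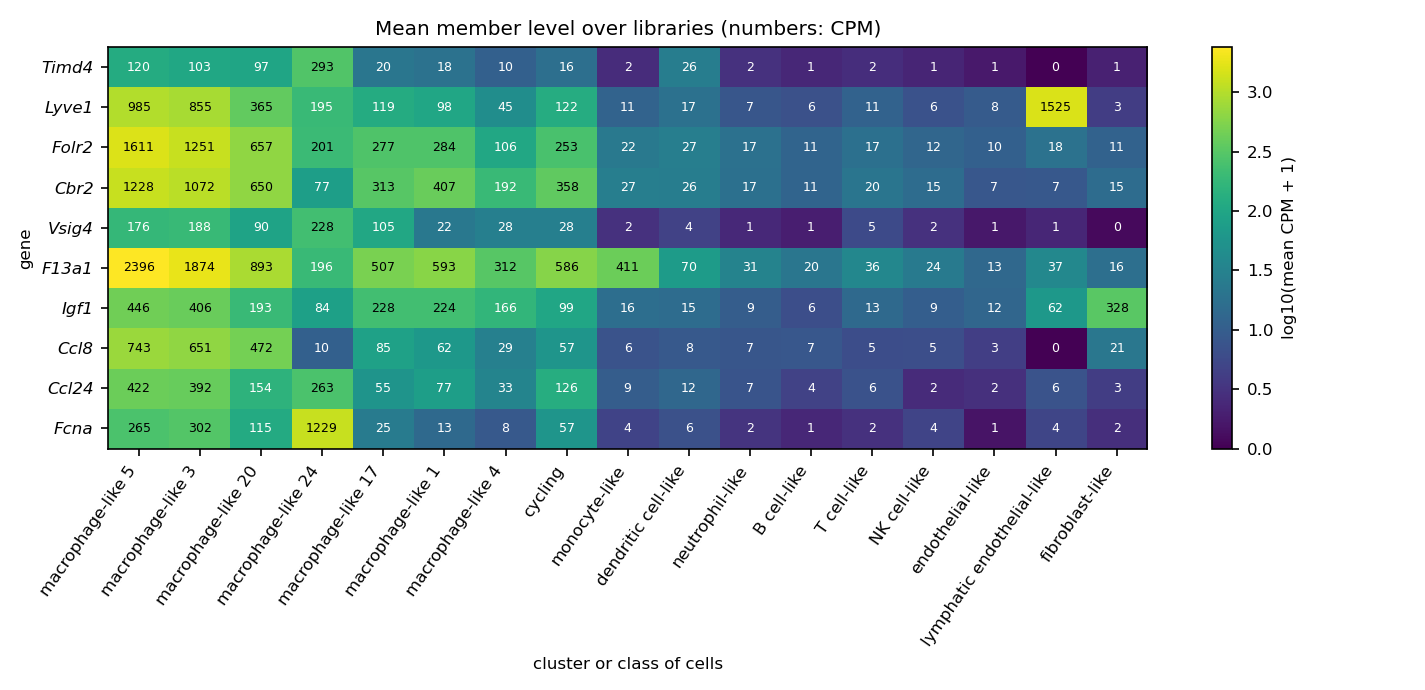
Mean CPM over libraries of each gene (rows) in the macrophage-like clusters, by number, and in the other classes (columns), with colour on a log10 scale. Folr2, Cbr2 and F13a1 exceed 1000 CPM in clusters 5 and 3, Fcna does so in cluster 24 and Lyve1 in lymphatic endothelial-like cells.

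In the pooled macrophage-like class, irradiation of WT hearts went with lower levels of Vsig4, Ccl24, F13a1 and Igf1. These 4 of the 10 genes fell and none rose, where 6.66% of 12535 genes were called and 2.96% were called lower. The median log2 fold change over the 10 was -0.39, against -0.0036 over all genes tested. Vsig4 was at 43.8 and 82.6 CPM in irradiated WT, against 169 and 182 CPM in sham WT. The groups do not overlap, and the log2 fold change was -1.45 ± 0.24 (SE; adjusted p = 0.0156). The eosinophil-attracting chemokine Ccl24 was at 132 and 190.4 CPM in irradiated WT, against 301 and 331 CPM in sham WT (-0.95 ± 0.18, adjusted p = 0.0251). F13a1 had 808 and 927 CPM in irradiated WT, against 1308 and 1303 CPM in sham WT (-0.57 ± 0.09, adjusted p = 0.0132). Igf1 differed least among the 4, with 246 and 229 CPM in irradiated WT and 319 and 291 CPM in sham WT (-0.35 ± 0.08, adjusted p = 0.0415). These class calls rest on few libraries and were not made at a stricter limit for mitochondrial UMIs. That limit left fewer macrophage-like cells and far fewer genes called in all, and the part of the lower cell number was not tested. At a limit of 5%, which left 286 to 577 macrophage-like cells in a library, against 1321 to 2074, none of the 10 was called, with Vsig4 at -0.79, Ccl24 at -1.14, F13a1 at -0.77 and Igf1 at -0.49 (adjusted p = 0.596, 0.1998, 0.221 and 0.359). Vsig4 was no longer called without either sham library (log2 fold changes over the 6 leave-outs between -1.99 and -1.06), F13a1 without the first sham or the first irradiated library (-0.68 to -0.47), Ccl24 without either sham or the first irradiated library (-1.25 to -0.71), and Igf1 without any 1 of the 6 (-0.39 to -0.30).

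Timd4 was at 41.3 and 68.3 CPM in irradiated WT, against 106 and 137 CPM in sham WT. The groups do not overlap, yet the class difference of -1.13 ± 0.31 missed the threshold (adjusted p = 0.0695). With 1 library left out it was called in 2 of the 6 fits, those without a library labelled knockout (-1.55 to -0.81 over the 6). Without cluster 24, an alternative chosen after the data had been seen, Timd4 was at 38.7 and 46.2 CPM in irradiated WT, against 103 and 122 CPM in sham WT. The difference was then -1.39 ± 0.13 (adjusted p = 0.000800), and it was called with any 1 of the 6 libraries left out. Vsig4 was called in all 6 leave-outs as well (-1.54 ± 0.18, adjusted p = 0.00190). In total 6 of the 10 genes fell in the class without cluster 24, where 4.34% of 12382 genes were called lower; the added ones are Timd4 and Folr2 (-0.38 ± 0.10, adjusted p = 0.0482). Folr2 was called in 1 of its 6 leave-outs (-0.52 to -0.24), only when the second irradiated library was left out, and Igf1 in none (-0.33 to -0.28). F13a1 was lost without the second sham library (-0.68 to -0.41), and Ccl24 without that or the first irradiated library (-1.29 to -0.73). Fcna had a log2 fold change of 0.58 ± 0.46 with cluster 24 and 0.04 ± 0.21 without it.

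**Figure D2:**
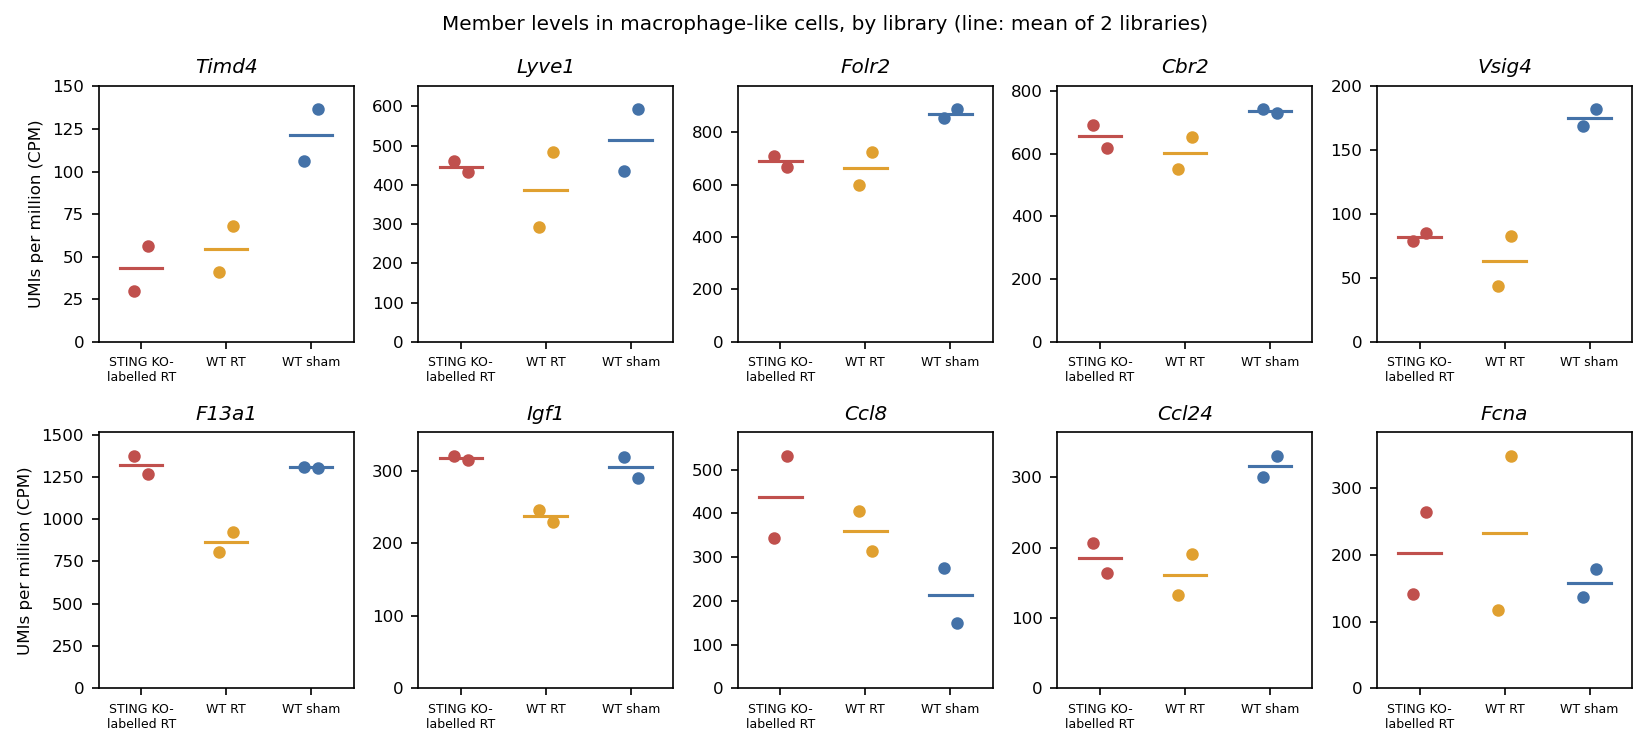
CPM of each gene in macrophage-like cells, 1 point per library and a line at the mean of 2, for libraries labelled STING knockout with RT, WT with RT and WT sham (left to right). Timd4, Vsig4, Ccl24, Folr2 and Cbr2 have both sham libraries above all 4 irradiated ones. Ccl8 has both below them, and F13a1, Igf1, Lyve1 and Fcna overlap. The share of all genes that separate in this way is not given, so an excess among the members was not tested.

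Lyve1, Cbr2, Ccl8, Folr2 and Fcna were not called in the whole class. Lyve1 had 291 and 483 CPM in irradiated WT and 435 and 593 CPM in sham WT, which overlap. Cbr2 was at 551 and 652 CPM in irradiated WT and 741 and 730.1 CPM in sham WT (-0.28 ± 0.10, adjusted p = 0.150). Folr2 was at 600.1 and 723 CPM in irradiated WT and 853 and 888 CPM in sham WT (-0.38 ± 0.10, adjusted p = 0.0667), so for these markers the sham libraries were the higher ones without passing the threshold. Fcna spread widely within irradiated WT, at 117 and 349 CPM, against 137 and 178 CPM in sham WT. Ccl8 was at 405 and 314 CPM in irradiated WT and 276 and 148 CPM in sham WT (0.78 ± 0.28, adjusted p = 0.141). The clusters that held most cells of the class were not the same ones in each group: in sham WT cluster 3 was the largest with 606 and 656 cells, in irradiated WT cluster 4 with 578 cells in the second library and cluster 1 with 396 in the first, and in the libraries labelled STING knockout cluster 1 with 583 and 635. Cluster boundaries rest on genes such as Cd163 that also differed between the groups. The cell numbers are therefore given beside the class values and were not tested.

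Within clusters, Timd4 and Vsig4 fell again, while most of the other genes were not called. Over the 6 clusters with at least 20 cells in every library, Timd4 fell after irradiation in 5 and Vsig4 in the same 5, clusters 1, 3, 4, 5 and 20. The share of genes called lower in those clusters was 2.25%, 0.571%, 1.59%, 0.633% and 0.177% in that order. In cluster 3 Timd4 was at 73.5 and 92.6 CPM in irradiated WT, against 158 and 183 CPM in sham WT (-1.04 ± 0.15, adjusted p = 0.00320). In the same cluster Vsig4 was at 109 and 138 CPM in irradiated WT, against 261 and 245 CPM in sham WT (-1.04 ± 0.12, adjusted p = 0.00106). Both calls in cluster 3 held with each library left out. Cluster 5 gave smaller differences in both genes, with Timd4 at 118 and 114 CPM in irradiated WT, against 168 and 195 CPM in sham WT (-0.65 ± 0.12, adjusted p = 0.0162). Vsig4 had 143 and 165 CPM there in irradiated WT, against 258 and 248 CPM in sham WT (-0.72 ± 0.15, adjusted p = 0.0305). In cluster 5 the Timd4 call was lost without either irradiated WT library (-0.77 to -0.53 over the leave-outs) and the Vsig4 call without those or the first sham library (-0.84 to -0.62). Cluster 1 held little of either gene, at 9.61 and 12.5 CPM of Timd4 in irradiated WT, against 31.2 and 43.3 CPM in sham WT (-1.79 ± 0.32, adjusted p = 0.00584). That call was lost without the second sham library (-2.03 to -1.48), whereas Vsig4 was called there in all 6 leave-outs. In cluster 4 Timd4 was lost without either sham or the second irradiated library (-2.59 to -0.97), and Vsig4 without any 1 of the 4 WT libraries (-3.05 to -2.06). Cluster 20 had 20 and 22 cells in the sham libraries, the smallest number tested, and its Timd4 call was lost without the first of them (-2.42 to -2.12) and its Vsig4 call without the second (-4.07 to -2.18). In cluster 17, where 0.219% of genes were called lower, neither gene passed the threshold.

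Folr2, Lyve1, Cbr2, F13a1 and Igf1 were not called in clusters 3 and 5, the macrophage-like clusters where they are most abundant. In cluster 5, Folr2 was at 1631 and 1695 CPM in irradiated WT and 1636 and 1655 CPM in sham WT (0.01 ± 0.08, adjusted p = 0.965). Lyve1 was at 874 and 1258 CPM in irradiated WT and 705 and 1038 CPM in sham WT (0.29 ± 0.17, adjusted p = 0.467). F13a1 was lower without overlap in cluster 3, at 1599 to 1684 CPM in irradiated WT, against 1837 to 1942 CPM in sham WT. In cluster 5 F13a1 was at 2166 to 2215 CPM, against 2270 to 2357 CPM. Cbr2 was higher without overlap in both clusters, and Folr2, Lyve1 and Igf1 overlapped. The share of all genes that separate in this way is not given. Such values miss the threshold and do not show equality, but the standard errors of the 5 genes in the 2 clusters were at most 0.17 on the log2 scale. Calls among the 5 were few in the other clusters. Folr2 rose in cluster 4, where it is scarce, to 122 and 132 CPM in irradiated WT, against 85.8 and 78.3 CPM in sham WT (0.61 ± 0.12, adjusted p = 0.00963, background for higher calls 1.35%), a call lost without either sham or the second irradiated library (0.55 to 0.67). F13a1 fell in cluster 17 (-1.09 ± 0.19, adjusted p = 0.0311), a call lost without the second sham library (-1.46 to -0.82).

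When the mix of the 6 clusters was held at the same fixed shares in every library, the log2 ratio of irradiated over sham WT was higher for each of the 10 genes than in the same 6 clusters with their mix as found, by 0.25 to 0.46. Timd4 was at -1.06 with the mix fixed and -1.41 with the mix as found, and Vsig4 at -1.12 and -1.56. Lyve1 was at 0.04 with the mix fixed and -0.42 as found, Folr2 at 0.01 and -0.39, and Cbr2 at 0.06 and -0.27. F13a1 was at -0.17 with the mix fixed and -0.56 as found, and Igf1 at -0.07 and -0.33. Ccl24 lay between, at -0.59 and -1.002. Ccl8 was at 1.15 with the mix fixed and 0.80 as found, and Fcna at 0.45 and 0.02. Timd4 and Vsig4 stayed below -1 with the mix fixed, while Lyve1, Folr2, Cbr2, Igf1 and F13a1 lay between -0.17 and 0.06. These ratios of group means carry no test and rest on cluster boundaries drawn with genes that also differed between the groups.

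**Figure D3:**
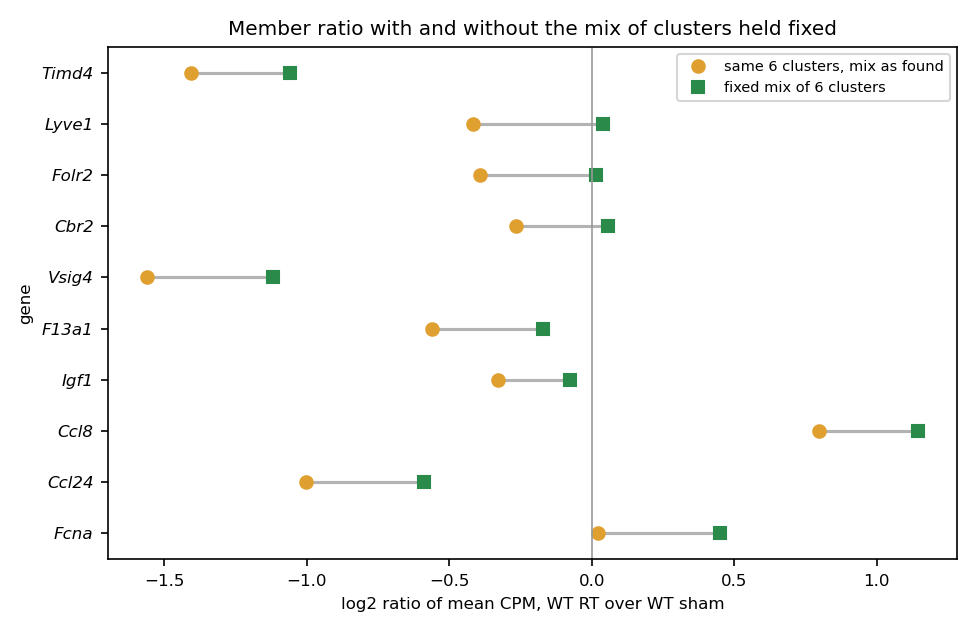
Log2 ratio of mean CPM, irradiated WT over sham WT, for each gene in the 6 tested macrophage-like clusters with their mix as found (circles) and held fixed (squares). Each square lies to the right of its circle. The squares of Timd4 and Vsig4 are below -1, and those of Lyve1, Folr2, Cbr2, Igf1 and F13a1 between -0.17 and 0.06.

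The 2 chemokines went opposite ways in cluster 5. Ccl24 fell in cluster 5, at 304 and 359 CPM in irradiated WT, against 550.0 and 598 CPM in sham WT (-0.79 ± 0.11, adjusted p = 0.00253), and kept the call with each library left out. It also fell in cluster 20 (-2.11 ± 0.33, adjusted p = 0.0101), though not without the second sham library (-2.57 to -1.70). Ccl8, a chemokine of the monocyte chemoattractant group in mouse, rose in cluster 5 to 1020 and 690 CPM in irradiated WT, against 494 and 229 CPM in sham WT (1.24 ± 0.26, adjusted p = 0.0288, background for higher calls 1.29%). That call was lost without the first irradiated library (0.79 to 1.88 over the leave-outs). In cluster 1 Ccl8 rose to 61.8 and 108 CPM in irradiated WT, against 19.4 and 17.3 CPM in sham WT (2.18 ± 0.33, adjusted p = 0.00208, background for higher calls 2.22%), called in all 6 leave-outs. In cluster 3 it was at 779 and 627 CPM in irradiated WT and 463 and 278 CPM in sham WT, which did not pass (0.91 ± 0.26, adjusted p = 0.126). Fcna was not called in any of the 6 clusters.

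The shares of cells with a UMI were compared at equal depth, after thinning every cell to 2000 UMIs. In cluster 3, cells with a Timd4 UMI at 2000 UMIs per cell made up 10.7% and 12.4% in irradiated WT, against 25.04% and 28.5% in sham WT. For Vsig4 they made up 8.25% and 7.54% in irradiated WT, against 15.03% and 17.3% in sham WT. Fewer cells of the same cluster thus showed either transcript, while Lyve1 was found in 55.3% and 63.0% of them in irradiated WT and 56.3% and 68.8% in sham WT. Before thinning, macrophage-like cells of sham WT were the shallowest, at a median of 4906 and 5247 UMIs, against 6954 and 5921 UMIs in irradiated WT. Thinning left out between 2.84% and 6.72% of the macrophage-like cells of a library for having under 2000 UMIs.

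**Figure D4:**
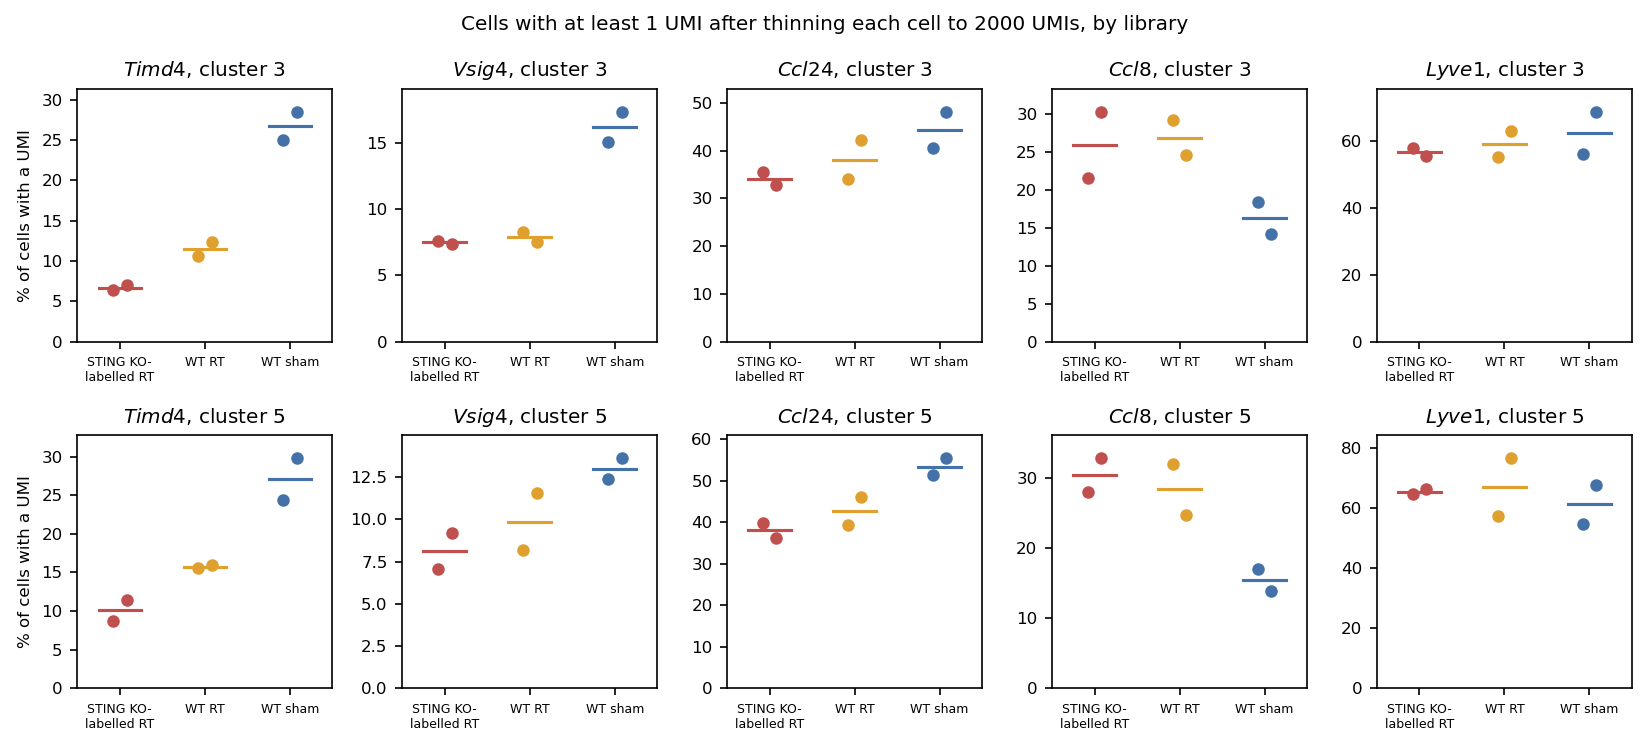
Percentage of cells with at least 1 UMI of Timd4, Vsig4, Ccl24, Ccl8 and Lyve1 in clusters 3 and 5 after thinning to 2000 UMIs, 1 point per library and a line at the mean of 2, with the groups in the same left-to-right order as for CPM. Both sham libraries lie above all 4 irradiated ones for Timd4, and below them for Ccl8.

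Cells with a Timd4 UMI carried Lyve1 and Vsig4 more often than cells without one, in irradiated and sham hearts. In irradiated WT, 59.4% and 68.3% of macrophage-like cells with a thinned Timd4 UMI also had a Lyve1 UMI, against 65.4% and 64.8% in sham WT. Among cells without a Timd4 UMI the shares with Lyve1 were 17.9% and 28.2% in irradiated WT and 25.9% and 33.0% in sham WT. For Vsig4 the shares among Timd4-carrying cells were 17.4% and 25% in irradiated WT and 19.0% and 19.4% in sham WT, and among the other cells 1.74% and 2.75% in irradiated WT and 6.504% and 8.31% in sham WT. The cells with a Timd4 UMI behind these shares numbered 69 and 120 in irradiated WT and 263 and 366 in sham WT. No test was made on cells. Counting the 10 genes together, an average macrophage-like cell showed 2.17 and 2.71 of them in irradiated WT, against 3.20 and 3.30 in sham WT.

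The comparison of libraries labelled STING knockout with WT, both irradiated, called 1 of the 10 genes in the class, where 1.4% of genes were called. F13a1 was higher, at 1375 and 1266 CPM in the libraries labelled STING knockout, against 808 and 927 CPM in irradiated WT (0.49 ± 0.09, adjusted p = 0.0440). The call was lost whichever library was left out (0.39 to 0.60). It was lost also at a limit of 5% mitochondrial UMIs (0.47, adjusted p = 0.544), where far fewer genes were called in all. Igf1 was at 321 and 316 CPM in the libraries labelled STING knockout and 246 and 229 CPM in irradiated WT, without overlap and without a call (0.31 ± 0.08, adjusted p = 0.0966). Neither gene was called within a cluster. With the mix of clusters fixed, the log2 ratio of F13a1 was 0.36, against 0.61 in the same 6 clusters with their mix as found, and that of Igf1 was 0.27, against 0.42.

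Timd4 was lower still in the libraries labelled STING knockout than in irradiated WT in cluster 5. It was at 60.4 and 65.6 CPM in the libraries labelled STING knockout, against 118 and 114 CPM in irradiated WT (-0.94 ± 0.13, adjusted p = 0.00330), and the call held in all 6 leave-outs. This was the only gene of the 10 called in any of the 6 clusters in that comparison, where 0.507% of genes were called lower in cluster 5. In cluster 3 Timd4 was at 48.5 and 59.1 CPM in the libraries labelled STING knockout and 73.5 and 92.6 CPM in irradiated WT, which missed the threshold (-0.71 ± 0.16, adjusted p = 0.0750). In the class without cluster 24 it was called (-0.62 ± 0.14, adjusted p = 0.0427, where 2.24% of genes were called lower), but in 3 of the 6 leave-outs: it was lost without the second irradiated WT library or either library labelled knockout (-0.75 to -0.48). Vsig4 was not called in cluster 3, at 190.1 and 187 CPM in the libraries labelled STING knockout and 109 and 138 CPM in irradiated WT (0.53 ± 0.13, adjusted p = 0.0977).

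**Figure D5:**
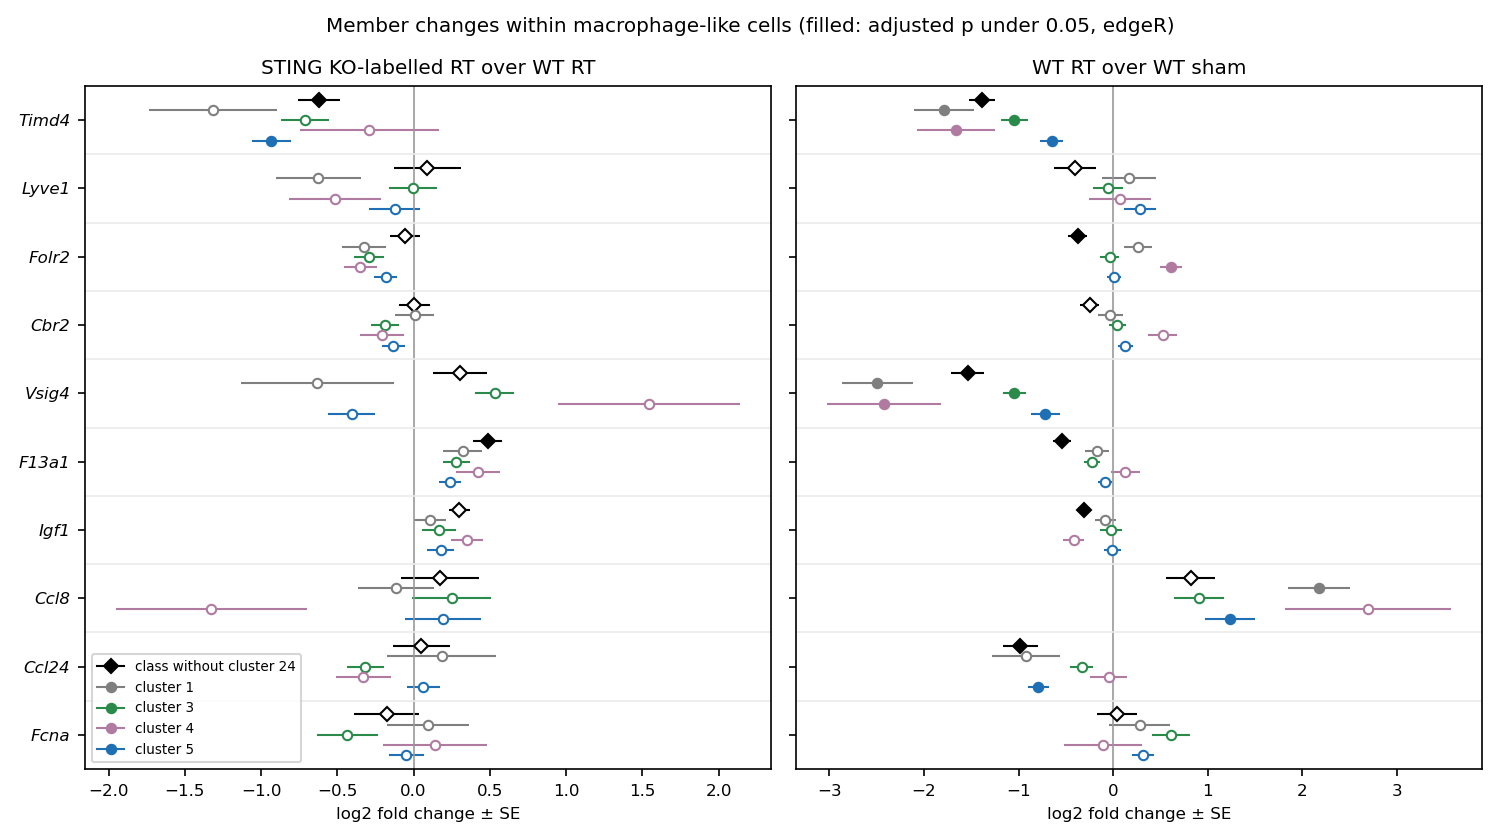
Log2 fold change ± SE of each gene in the macrophage-like class without cluster 24 and in clusters 1, 3, 4 and 5, for libraries labelled STING knockout over WT, both irradiated (left), and irradiated over sham WT (right); filled symbols have an adjusted p under 0.05. Timd4 and Vsig4 are filled in all 4 clusters on the right, and Timd4 in cluster 5 is the filled cluster symbol on the left.

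In the whole class Timd4 was at 29.9 and 56.5 CPM in the libraries labelled STING knockout, Vsig4 at 78.8 and 84.9 CPM and Ccl24 at 206 and 163 CPM, each below both sham libraries. Folr2 was at 710 and 668 CPM in the same libraries, Cbr2 at 692 and 619 CPM, Lyve1 at 460 and 432 CPM, Ccl8 at 344 and 531 CPM and Fcna at 142 and 264 CPM. Set against sham WT, which differs from them in genotype label and treatment together, the libraries labelled STING knockout had lower class levels of Timd4 (-1.60 ± 0.31, adjusted p = 0.0282), Vsig4 (-1.20 ± 0.24, adjusted p = 0.0301) and Ccl24 (-0.87 ± 0.18, adjusted p = 0.0362), where 2.64% of genes were called lower. At a limit of 5% mitochondrial UMIs none of the 3 was called (-0.93, -1.27 and -0.70), where far fewer genes were called in all. Each of the 3 calls was lost without either sham library; Timd4 was lost also without the first library labelled knockout (-2.11 to -1.22), and Vsig4 (-1.27 to -1.12) and Ccl24 (-1.06 to -0.70) without either of those. Within clusters Timd4 fell in all 6 tested, with log2 fold changes of -3.11 ± 0.32 in cluster 1, -1.76 ± 0.15 in cluster 3 and -1.59 ± 0.12 in cluster 5, and these 3 calls held in every leave-out; those in clusters 4, 17 and 20 were each lost without at least 1 library. The shares of genes called lower there were 3.06%, 1.47% and 1.49% in that order, and 3.24%, 1.08% and 0.218% in clusters 4, 17 and 20. Ccl8 rose in clusters 1, 3 and 5, by 2.06 ± 0.31, 1.16 ± 0.26 and 1.43 ± 0.26; the call in cluster 3 was lost without the second sham library or the second labelled knockout (0.60 to 1.56). The shares of genes called higher in those 3 clusters were 2.0%, 0.942% and 1.29%. Vsig4 fell in clusters 1 (-3.12 ± 0.35) and 5 (-1.12 ± 0.15) in every leave-out, and in cluster 3 (-0.51 ± 0.12) it was called in 2 of the 6 leave-outs, those without an irradiated WT library. Ccl24 fell in cluster 5 (-0.73 ± 0.11) in every leave-out, in cluster 3 (-0.65 ± 0.12) except without the second sham library or the second labelled knockout, and in cluster 20 (-1.89 ± 0.34) except without the second sham library or the first labelled knockout. Lyve1 fell in cluster 20 (-1.36 ± 0.27), lost without the first sham library or the first labelled knockout, and F13a1 rose in cluster 4 (0.55 ± 0.15, background for higher calls 1.37%), lost without any 1 library of the groups compared. In all, 17 calls were made within clusters in this comparison. This comparison shares its libraries with the other 2 and is no separate evidence.

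Cycling cells, a cluster led by division genes such as Birc5 and Mki67 that also carried myeloid markers, differed by genotype label in Ccl8. Ccl8 was at 127 and 111 CPM in cycling cells labelled STING knockout, against 37.8 and 33.5 CPM in irradiated WT and 20.04 and 15.4 CPM in sham WT. The libraries labelled knockout exceeded irradiated WT by 1.67 ± 0.14 on the log2 scale (adjusted p = 0.000419, background for higher calls 0.101%), in all 6 leave-outs. Ccl24 fell with irradiation in cycling cells, at 56.1 and 73.3 CPM in irradiated WT, against 244 and 214 CPM in sham WT (-1.71 ± 0.23, adjusted p = 0.0127, background for lower calls 0.221%), and F13a1 fell there too (-0.93 ± 0.12, adjusted p = 0.0127). Both were lost without either sham library (Ccl24 -1.95 to -1.52, F13a1 -1.01 to -0.83). In monocyte-like cells 7 of the 10 genes could be tested. At 2000 UMIs per cell F13a1 was found in 35.9% of these cells. Each other member was found in at most 2.52%, near its share of B cell-like cells. None of the 7 was called in the 3 comparisons by edgeR, where 0.0467% of genes were called for irradiation. At an unadjusted p under 0.05 stood 4 of the 7 after irradiation, where 593 of 8559 genes did. By genotype label it was 1 of the 7, beside 958 of the 8559 genes, and for knockout over sham 2, beside 752. F13a1 was at 178 and 470.5 CPM in irradiated WT and 416 and 405 CPM in sham WT monocyte-like cells. Cluster 8, the monocyte-like cluster rich in F13a1, had 135 and 232 cells in irradiated WT and 164 and 119 in sham WT. Cluster 15, poor in it, had 164 and 99 cells in irradiated WT and 104 and 80 in sham WT. The part of this mix in the F13a1 level was not tested. A direct test of whether the effect of irradiation differed between macrophage-like and monocyte-like cells called none of the 10, where 0.39% of 12042 genes were called. Folr2 came nearest (-1.24 ± 0.28, adjusted p = 0.0669), and 982 genes had an unadjusted p under 0.05. For every member but F13a1 the monocyte-like side lay near the level of free RNA. There the test cannot tell a change in monocyte-like cells from one in free RNA. With 1 library left out 0 to 2 of the 10 were called, 2 of them without the first irradiated WT library. Calls in other classes lay at the level of free RNA and are not read as changes in those cells. F13a1 passed the test in T cell-like cells for irradiation (-2.03 ± 0.35, adjusted p = 0.0170, background for lower calls 0.159%), where 3.77% of cells thinned to 2000 UMIs had a UMI of it, against 3.49% of B cell-like cells. Folr2 passed in endothelial-like cells for the libraries labelled STING knockout over sham WT (-1.57 ± 0.41, adjusted p = 0.0312, background for lower calls 4.82%), with a UMI in 1.39% of endothelial-like cells, against 2.26% of B cell-like cells. Median depths before thinning were 3556.5 UMIs in T cell-like, 6955 in endothelial-like and 2785 in B cell-like cells.

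Other genes of resident macrophages moved in the same class after irradiation, from a list of 20 chosen with earlier results of these data known. Of these, 8 fell and 1 rose, with a median of -0.33, where 2.96% of all genes were called lower and 3.7% higher. Cd163, the haemoglobin scavenger receptor, fell most clearly by its p (-1.55 ± 0.15, adjusted p = 0.00271), followed by Stab1, a scavenger receptor (-0.60 ± 0.08, adjusted p = 0.00691), and Selenop, a selenium carrier (-0.67 ± 0.09, adjusted p = 0.00723). Siglec1, a sialic acid receptor induced by interferon, rose (1.06 ± 0.13, adjusted p = 0.00672). Of 20 genes of monocyte-derived cells 6 rose and none fell (median 0.47, background for higher calls 3.7%), among them Ly6c2 (3.57 ± 0.33) and Ccr2 (1.97 ± 0.20). The summed level of monocyte markers in the macrophage-like class was 512 and 413 CPM in irradiated WT, against 142 and 125 CPM in sham WT, and its part in the members' differences was not tested. Within cluster 3 Ccr2 rose as well, by 2.41 ± 0.21, beside the lower Timd4 and Vsig4.

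Of 30 receptors, ligands and relatives of the 10 proteins, 18 could be tested in the class after irradiation (median 0.14). Of these 3 rose, where 3.7% of all genes were called higher. All 3 were monocyte-attracting chemokines, namely Ccl12 (1.38 ± 0.25), Ccl7 (0.99 ± 0.19) and Ccl2 (0.70 ± 0.16). Another 2 fell, among them Igf1r, the receptor for Igf1 (-0.96 ± 0.15), where 2.96% of all genes were called lower. In the libraries labelled STING knockout, Ccl7 (-1.17 ± 0.19, adjusted p = 0.0289) and Ccl2 (-1.02 ± 0.16, adjusted p = 0.0285) were lower than in irradiated WT, where 0.909% of all genes were called lower. Ccl8 did not pass in that comparison (0.17 ± 0.28, adjusted p = 0.791). Of 10 heart muscle transcripts 4 fell and none rose in irradiated WT, where 2.96% of all genes were called lower. Their sums were 361 and 309 CPM in irradiated WT, against 448 and 467 CPM in sham WT. The part of these transcripts in the members' differences was not tested. Without cluster 17 the same number of members, 4, was called.

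Across 28 clusters of at least 50 cells, all drawn from the same 6 libraries, the genes whose mean log2 level was most like a member's were described by Pearson's r. Nxpe5 was among the 3 nearest genes for Timd4 (r = 0.900), Vsig4 (0.875), Ccl24 (0.947) and Fcna (0.909). The complement genes C1qa and C1qc were among the nearest for Folr2 (0.943 and 0.940) and Cbr2 (0.953 and 0.950), behind Ms4a7 for Cbr2 (0.961). Stab1 stood nearest to Lyve1 (0.911), Trem2 to F13a1 (0.945), Rab3il1 to Igf1 (0.916), Tnfrsf17 to Ccl8 (0.931) and Pf4 to Ccl24 (0.968) and Vsig4 (0.927). Among the members themselves Folr2 and Cbr2 were most alike (0.980), and Timd4 was most like Fcna (0.940) and least like Igf1 (0.629).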

How the data were processed

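Droplet single-cell libraries of CD45+ heart cells were read as UMI counts per gene and barcode, the unit in which the authors deposited them; the submitters' processing notes name Cell Ranger 5.0.0, Seurat 3 and the build mm10. The sources used here do not give the filters applied before deposit. The 10 genes and all gene lists were chosen with earlier results of these data known. Cells with at least 200 genes and at most 10% mitochondrial UMIs were kept, and the cells with the highest doublet scores were removed (0.8% per 1000 cells). Cells were clustered in scanpy 1.11.5 (2000 variable genes without the 10 members, 30 principal components, 15 neighbours, Leiden resolution 1) and named from fixed markers. Counts were summed per library and class or cluster and tested with edgeR 4.0.16 (filterByExpr, TMM, quasi-likelihood F test, all 6 libraries in one fit); a cluster needed 20 cells in every library. SE is the log2 fold change divided by the square root of F. Libraries of one group differed beyond sampling noise (chi-square per degree of freedom 7.46 to 9.86). The genes named are all 10 members, the 3 genes most like each by Pearson r of mean log2(CPM + 1) over clusters of at least 50 cells, and up to 4 genes of each list with the smallest p. The result for a list of macrophage regulators is not reported here. Alternatives were DESeq2 1.42.0, other scaling, filters, clustering and doublet settings, and each library left out; with 1 library left in a group, that library is assumed to vary like the other groups. Scripts were tested on simulated data. Shares and counts carry counting error only from UMIs, and free RNA was gauged in B cell-like cells.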

Additional observations from a re-analysis of the deposited data

How the results depend on the processing

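In macrophage-like cells 835 genes and 4 members were called for irradiation, 176 genes and 1 member for genotype, and 565 genes and 3 members for the libraries labelled STING knockout over sham WT. A limit of 5% mitochondrial UMIs left 13, 4 and 27 genes and 0 members in each. Without a filter on low counts the members called were 7 for irradiation and 5 for knockout over sham. The genes called were then 604 for genotype and 1044 for knockout over sham. The number of genes called for irradiation in that setting is not given, so the 7 members are not set against it. Within clusters 71 calls were made in place of 34, with a member counted once per cluster and comparison. The 34 are 16 for irradiation, 1 for genotype and 17 for knockout over sham, each from 60 tests. No share over all genes is given for these sums. For the difference in irradiation effect between macrophage-like and monocyte-like cells 2 members were called in place of 0. No count over all genes is given for that fit. DESeq2 called 420 genes and 2 members for genotype, and Leiden resolution 0.5 gave 360 genes for genotype. With only the 4 libraries compared, 542 genes were called for irradiation and 0 members for genotype. Without cluster 24, chosen after seeing the data, genotype had 443 genes and 2 members, and knockout over sham 879 genes; leaving out cluster 17, also chosen then, kept each count within 1.5 times. The cause of these shifts was not tested. With 1 library left out, irradiation had 192 to 563 genes and 0 to 4 members, genotype 20 to 196 genes and 0 members, and knockout over sham 83 to 648 genes and 0 to 4 members. Within clusters 22 to 41 members were called, and 0 to 2 for the difference between classes, for irradiation and for genotype.

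Members that were not called changed sign. At 5% mitochondrial UMIs the genotype log2 fold changes were -0.12 for Lyve1, -0.031 for Cbr2, -0.48 for Vsig4 and -0.46 for Ccl8, and with doublets kept Cbr2 was at -0.0068. At resolution 0.5 Fcna was at -0.13 for irradiation and 0.35 for genotype, Folr2 at 0.21 for genotype and F13a1 at 0.15 for knockout over sham; without cluster 24 Fcna was at -0.14 for knockout over sham. With 1 library left out, Fcna ranged between -0.42 and 1.16 for irradiation, -0.91 and 0.68 for genotype, and -0.25 and 0.63 for knockout over sham. For genotype Lyve1 ranged between -0.24 and 0.51, Folr2 between -0.20 and 0.091, Vsig4 between -0.14 and 0.79, Cbr2 between -0.12 and 0.14, Ccl24 between -0.17 and 0.37 and Ccl8 between -0.17 and 0.44. Igf1 lay between -0.084 and 0.0093 for knockout over sham.

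The labels number the libraries in each group, but same-numbered libraries deviated together only weakly (r = 0.185, 0.108 and 0.031), so they were not treated as pairs. With the replicate block 904, 250 and 652 genes and 5, 1 and 4 members were called for irradiation, genotype and knockout over sham. Within clusters 35 calls were made with the block, a member being counted once per cluster and comparison. Timd4 and Vsig4 outside clusters 3, 5 and 24 rest on few UMIs per cell, and cluster 20 on few sham cells, which limits what could be detected there.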

Other observations

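Vsig4 in cluster 4 differed within the group labelled STING knockout, with 186 UMIs (49.5 CPM) in the first library and 22 UMIs (6.12 CPM) in the second. The log2 fold change over irradiated WT was 1.54 ± 0.59 with all libraries (adjusted p = 0.209) and ran between -0.66 and 2.37 with 1 library left out, so it has no settled direction.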
